A study of Rattus norvegicus with 40 samples.

Results

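Aig1 (androgen-induced 1, Entrez gene 292486) was followed across the dose groups of a rat liver study through its 2 probe sets, 1375845_PM_at and 1381824_PM_at, which are all that the array's annotation names among 31139 probe sets. The gene was chosen by its levels in these same data, where one probe set rises from the lowest dose and the other does not, so its dose response is described and not tested. The first is called the bright probe set and the second the dim one. The animals were adult male Sprague Dawley SD:CD rats gavaged daily over 4 days with vehicle alone or with GW7647, a synthetic agonist of the nuclear receptor PPAR-alpha. The daily dose was 0.1 mg/kg, 1 mg/kg or 10 mg/kg. Liver was collected 24 h after the final gavage, with 10 rats in each of the 4 groups and an Affymetrix array of total RNA for each rat. Whole liver RNA was read, so that fewer cells of a type and less RNA per cell cannot be told apart.

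Aig1 is a membrane protein of the same family as Adtrp, the androgen-dependent regulator of tissue factor pathway inhibitor. Both act, in work on human and mouse proteins, as hydrolases that use a threonine to cleave fatty acid esters of hydroxy fatty acids (FAHFAs), signalling lipids in which a fatty acid is bound to the hydroxyl group of another. PPAR-alpha binds fatty acids and, when activated in liver, switches on genes of fatty acid oxidation in mitochondria and peroxisomes.

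The annotation ties the 2 probe sets to different expressed sequences, and RefSeq (GRCr8) lists 13 Aig1 transcripts, of which 10 are coding. The labelling kit starts copying at the poly-A tail, so a probe set reads the transcripts that hold its target near their 3′ end. Which transcripts each probe set reads was not analysed here.

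The only Aig1 sequence shown is the stretch before the gene's start, because the transcript level read by one probe set was higher at each higher dose. It is the 250 bases upstream of the start in RefSeq's promoter table, chr1:10089084-10089333 on the minus strand of GRCr8. The capitals mark matches to the GC box letters GGGCGG and to TGACG, the core of the cyclic AMP response element, on either strand.
Aig1 upstream: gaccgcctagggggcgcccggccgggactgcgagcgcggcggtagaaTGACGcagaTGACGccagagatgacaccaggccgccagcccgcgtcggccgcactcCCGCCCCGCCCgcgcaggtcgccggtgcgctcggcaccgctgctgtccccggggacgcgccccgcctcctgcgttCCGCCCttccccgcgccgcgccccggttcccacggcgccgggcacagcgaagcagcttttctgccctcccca

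Of these bases 77.2% are G or C, against a median of 51.2% over all 33469 promoter windows of this length. The window holds 3 GC boxes, all on the other strand, 2 of which share a base, and 30.5% of all windows hold at least 1. It holds 2 TGACG matches, 203 and 194 bases before the start, and 18.2% of windows hold at least 1. It holds no match to the DR1 form of a PPAR response element, a pair of AGGTCA letters with any 1 base between them, which 0.0508% of windows hold, and none to a single AGGTCA, which 14.1% hold. CCAAT and TATAAA were not in it either (34.0% and 12.9% of windows). The motifs were chosen with the sequence in view. The annotated gene reaches 371 bases further out than the start used by the table, so this window lies inside the gene as drawn for its longest transcripts.

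The bright probe set, 1375845_PM_at, was higher at each dose than at the one before. Its deposited log2 level was 3.54 at the lowest, 4.46 at the median and 4.84 at the highest of the vehicle arrays. At 0.1 mg/kg the lowest, median and highest levels were 4.99, 6.02 and 6.45. At 1 mg/kg they were 8.47, 8.93 and 9.30, and at 10 mg/kg 9.74, 9.86 and 10.05. No dose group overlapped the one before it: the lowest array lay above the highest array of the group before it by 0.16, 2.02 and 0.44 in the 3 steps.

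Over the 4 groups, from vehicle up to the highest dose, its means were 4.40 ± 0.35, 5.89 ± 0.54, 8.88 ± 0.26 and 9.87 ± 0.10 (log2, SD, n = 10 each). Against vehicle the log2 changes were 1.49 (SE 0.20), 4.48 (SE 0.14) and 5.47 (SE 0.12) for the 3 doses from low to high, or 2.81-fold, 22.4-fold and 44.4-fold. After quantile normalization of all arrays the folds were 2.97, 19.4 and 36.8. These values chose the gene and carry no test.

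The scale of the deposited values differs between the groups, which bears on all changes at 1 and 10 mg/kg. The median change of all 13438 genes, each read by its brightest probe set, was -0.03, 0.16 and 0.26 at the 3 doses. Poly-A control RNAs averaged 5.57, 5.84, 6.22 and 6.56 from vehicle to 10 mg/kg, and the excess of the 3′ over the 5′ actin probe sets, which grows as RNA is shorter, was 2.78, 2.85, 3.11 and 3.22. The 6 hepatocyte markers averaged between 12.4 and 12.7 on all 40 arrays, and 2 of them fell at 10 mg/kg. Of 5 measured Kupffer cell markers 4 fell at 10 mg/kg, with a list mean of 5.57 to 6.57 over these arrays, against 6.29 to 6.999 with vehicle. Fell means a limma adjusted p under 0.05 on both deposited and quantile normalized values, as for 7.69% of all genes at 10 mg/kg. At that dose 1 of 4 sinusoidal endothelial markers fell, and of 6 stellate cell markers 1 rose and 1 fell. Of 4 cholangiocyte markers 2 rose, and of 4 adipocyte markers 1 rose (20.4% of all genes rose). The part of these shifts in the results was not tested.

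The dim probe set, 1381824_PM_at, stayed low at every dose. Its lowest, median and highest log2 levels were 1.83, 2.05 and 2.28 on the vehicle arrays and 1.66, 1.997 and 2.22 at 0.1 mg/kg. They were 1.94, 2.11 and 2.31 at 1 mg/kg and 2.12, 2.20 and 2.45 at 10 mg/kg. All groups overlapped, and on 40 of 40 arrays it lay below the median of that array's probe sets.

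Its means over the same 4 groups were 2.04 ± 0.15, 1.97 ± 0.17, 2.13 ± 0.14 and 2.23 ± 0.11 (log2, SD, n = 10 each). The changes against vehicle were -0.07 (SE 0.07), 0.09 (SE 0.07) and 0.19 (SE 0.06). The small upward values at 1 and 10 mg/kg were below the median change of all genes, and after quantile normalization they were -0.005 and -0.07. Within an array it stood at percentile 9.34 to 44.5 of all probe sets. The bright one stood at 97.4 to 97.8 at 10 mg/kg, against 65.0 to 75.8 with vehicle. The values come without detection calls, so a transcript that this probe set reads poorly and one that is not made cannot be told apart here.

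**Figure D1:**
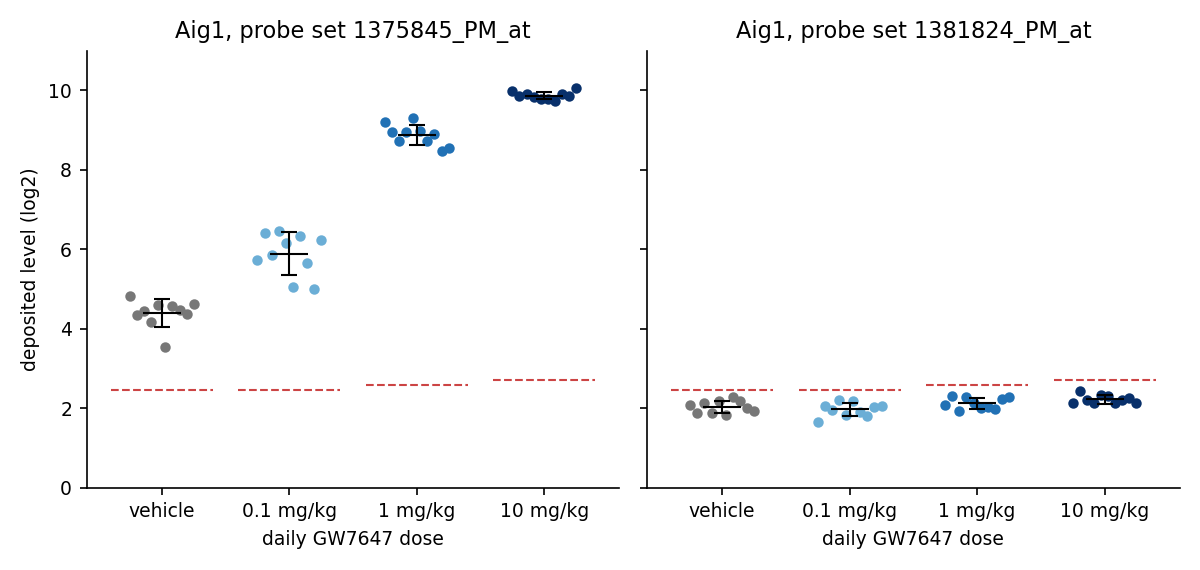
Deposited log2 level of the 2 Aig1 probe sets on each of 40 arrays, by daily GW7647 dose; black bars are group means with SD (n = 10 each) and dashed red lines the mean of the array medians over all probe sets. The bright probe set has group means of 4.40, 5.89, 8.88 and 9.87 without overlap between groups, while the dim one stays under the dashed line with means of 1.97 to 2.23.

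No other gene with several probe sets was split as far, but Aig1 was chosen for this split, so nothing is read from its rank. The changes of the 2 Aig1 probe sets lay 5.28 apart on the log2 scale at 10 mg/kg, against a median of 0.30 and a 95th percentile of 0.88 over 3985 genes with more than 1 probe set. The next widest gaps were those of Scd2, a fatty acid desaturase (2.71), and Enc1 (2.59). Aig1 also had the widest gap at 0.1 mg/kg (1.56, median 0.10) and at 1 mg/kg (4.39, median 0.23). Of the 10 genes with several probe sets and one of them up by at least 3 at 10 mg/kg, 3 had another that changed by less than 0.5, and these were Aig1, Enc1 and Scd2. Over the 40 arrays the one that moved least averaged 2.09 in Aig1, 2.08 in Enc1 and 1.92 in Scd2, dim levels in each.

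**Figure D2:**
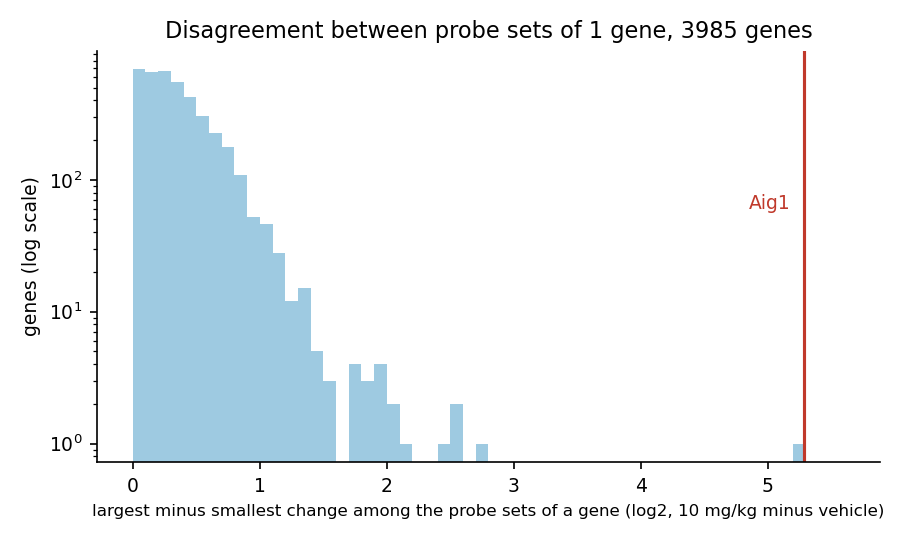
Histogram of the largest minus the smallest log2 change among the probe sets of each of 3985 genes, at 10 mg/kg against vehicle; the vertical axis counts genes on a log scale and the red line marks Aig1. Aig1, which was chosen for this split, stands at 5.28, and the next gene at 2.71.

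Set against all genes, the bright Aig1 probe set had the largest positive change at the lowest dose and was near the top at the higher ones. At 0.1 mg/kg no other of the 13438 genes had a larger log2 change. At 1 mg/kg only Acot1, an acyl-CoA thioesterase (9.06), and Hdc, which forms histamine (4.72), were above its 4.48. Its 5.47 at 10 mg/kg was exceeded by 5 genes: Acot1 (9.91), Fabp3, a heart and muscle carrier of fatty acids (6.86), Cpt1b, the muscle type of the enzyme for fatty acid entry into mitochondria (6.25), Adig (5.80) and Spmip11 (5.79). Between 10 and 1 mg/kg Aig1 differed by a further 0.99, and 62 genes differed upward by more. The comparisons with vehicle share the same vehicle arrays. Since Aig1 was chosen for its rise, nothing is read from these ranks.

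Rising order without any overlap between neighbouring dose groups was rare. Only Aig1 and Ech1, an isomerase of unsaturated fatty acid oxidation, showed it among all genes, on the deposited values and also once quantile normalized (0.0149% of genes). In the single steps, all arrays of the higher group lay above all arrays of the lower one for 0.0149% of genes from vehicle to 0.1 mg/kg, 5.75% from 0.1 to 1 mg/kg and 2.46% from 1 to 10 mg/kg. Aig1 was chosen for its rise, so nothing is read from these shares.

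On the log2 scale most of the Aig1 change was in place at 1 mg/kg, though the fold was 22.4 there and 44.4 at 10 mg/kg. At 0.1 mg/kg 27.3% of its log2 change at 10 mg/kg had been reached, and at 1 mg/kg 81.9%. Over the 478 genes that were higher by at least 1 at 10 mg/kg than with vehicle the medians were 0.918% and 62.5%. Aig1 was passed by 16 of them at 0.1 mg/kg and by 76 at 1 mg/kg. Among the 34 genes higher by at least 3, only Aldh1a1, which makes retinoic acid (30.8%), and Cyp4a1, which hydroxylates the end of fatty acids (27.5%), had a larger share at 0.1 mg/kg, and the median was 4.24%. After quantile normalization the Aig1 shares were 30.2% and 82.2%, and 23 and 67 of the 478 genes passed it. Aig1 was chosen for its rise from the lowest dose, so nothing is read from these shares or ranks.

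**Figure D3:**
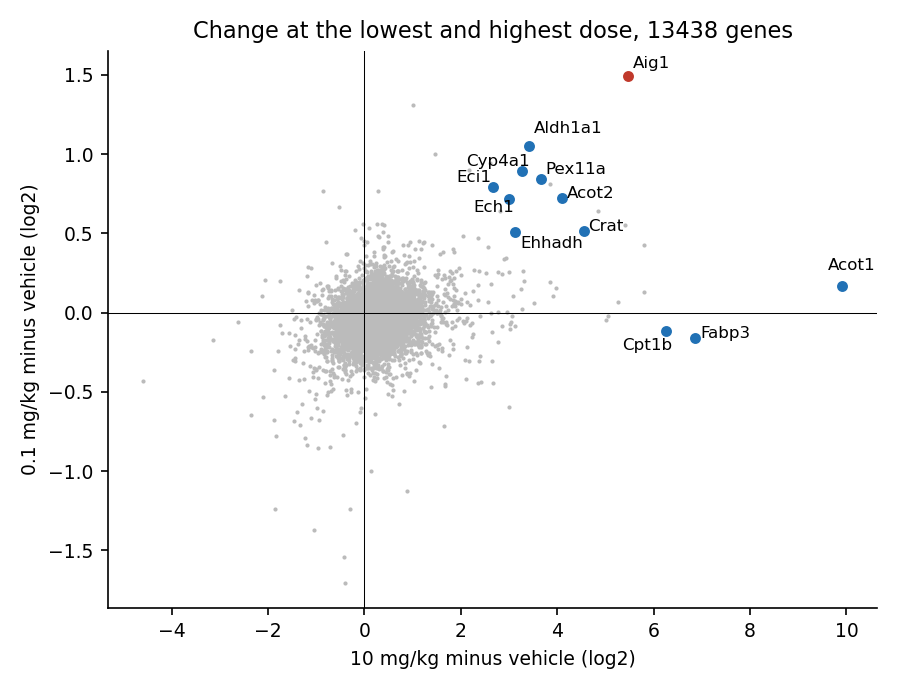
Log2 change at 10 mg/kg (horizontal) and at 0.1 mg/kg (vertical) against vehicle for 13438 genes in grey, with Aig1 in red and other genes named in the text in blue; both axes share the vehicle arrays. Aig1 is the highest point, at 1.49, and Acot1 lies furthest to the right at 9.91 with a change of 0.17 at 0.1 mg/kg.

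The spread of the bright probe set between rats also differed between the dose groups, which was not tested. At 0.1 mg/kg its SD of 0.54 was larger than that of 94.3% of the 1444 genes with a group mean within 0.5 of its own, whose median SD was 0.26. Its SD of 0.10 at 10 mg/kg was larger than that of 12.9% of 379 such genes (median SD 0.17). With vehicle and at 1 mg/kg it stood at 76.8% and 74.3%. Without array 6, the lowest of the vehicle group, the vehicle SD was 0.19 in place of 0.35. A smaller SD at 10 than at 0.1 mg/kg was not particular to Aig1. Each of the 6 genes most like it over all 40 arrays, named below, had one. Their SDs were 0.22 to 0.35 at 0.1 mg/kg and 0.05 to 0.24 at 10 mg/kg. The lowest arrays at 0.1 mg/kg were array 9, at 4.99, and array 6, at 5.05. Array 9, and array 8 with an Aig1 level of 5.65, had a low upper quartile of all probe sets (4.47 and 4.27, against at least 4.76 on the others), and without both the change at 0.1 mg/kg was 1.63. At 1 mg/kg the poly-A controls were lower on arrays 1 to 4 than on arrays 5 to 10, but Aig1 was at 8.96 ± 0.19 and 8.83 ± 0.31 on them (SD, n = 4 and n = 6).

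Among rats of one dose group, the bright Aig1 probe set was related to Pex11a at 1 mg/kg, the only one of 24 relations to pass. Correlations over the 10 arrays of each group were computed with the dim probe set, Cyp4a1, Acot2, Ehhadh, Pex11a and Adtrp, with two-sided permutation tests. At 1 mg/kg Aig1 and Pex11a, which acts in peroxisome division, had Pearson's r = 0.88 (permutation p = 0.00103, adjusted p = 0.0247) and Spearman's rho = 0.83 (permutation p = 0.00451, adjusted p = 0.074). Without the 2 arrays farthest from the Aig1 median r was 0.92, and over arrays 5 to 10 alone it was 0.86. The other 23 did not pass by r, and none of the 24 passed by rho.

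On the deposited values the next closest were with Ehhadh, the peroxisomal bifunctional enzyme, and Acot2, a mitochondrial thioesterase. For Ehhadh r was 0.71 at 0.1 mg/kg (permutation p = 0.0221, adjusted p = 0.106; rho = 0.76, permutation p = 0.0144, adjusted p = 0.0864) and 0.80 at 1 mg/kg (permutation p = 0.00665, adjusted p = 0.0798; rho = 0.79, permutation p = 0.00925, adjusted p = 0.074). For Acot2 it was 0.73 and 0.76 at these doses (permutation p = 0.0151 and 0.0106, adjusted p = 0.0908 and 0.0852; rho = 0.79 and 0.71, permutation p = 0.00866 and 0.0269, adjusted p = 0.074 and 0.107). Without the 2 farthest arrays these values of r were 0.67 and 0.70 for Ehhadh and 0.49 and 0.58 for Acot2, and over arrays 5 to 10 at 1 mg/kg alone they were 0.93 and 0.69. With Cyp4a1 at 0.1 mg/kg r was 0.62 on the deposited values and 0.70 after quantile normalization. The quantile normalized r at that dose was 0.64 for Ehhadh and 0.69 for Acot2. None of them passed at 0.1 mg/kg on either scale. At 10 mg/kg, where Aig1 hardly varied, r with Pex11a, Ehhadh, Acot2 and Cyp4a1 lay between 0.09 and 0.40. The 2 Aig1 probe sets had r = 0.63 on the vehicle arrays (permutation p = 0.0313, adjusted p = 0.125; rho = 0.63, permutation p = 0.0589, adjusted p = 0.202) and 0.00, -0.17 and -0.33 from the low to the high dose. Without the 2 farthest arrays these 4 values were 0.62, 0.76, -0.06 and 0.03, so that r at 0.1 mg/kg rests on 2 arrays and no course with dose is read from them.

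**Figure D4:**
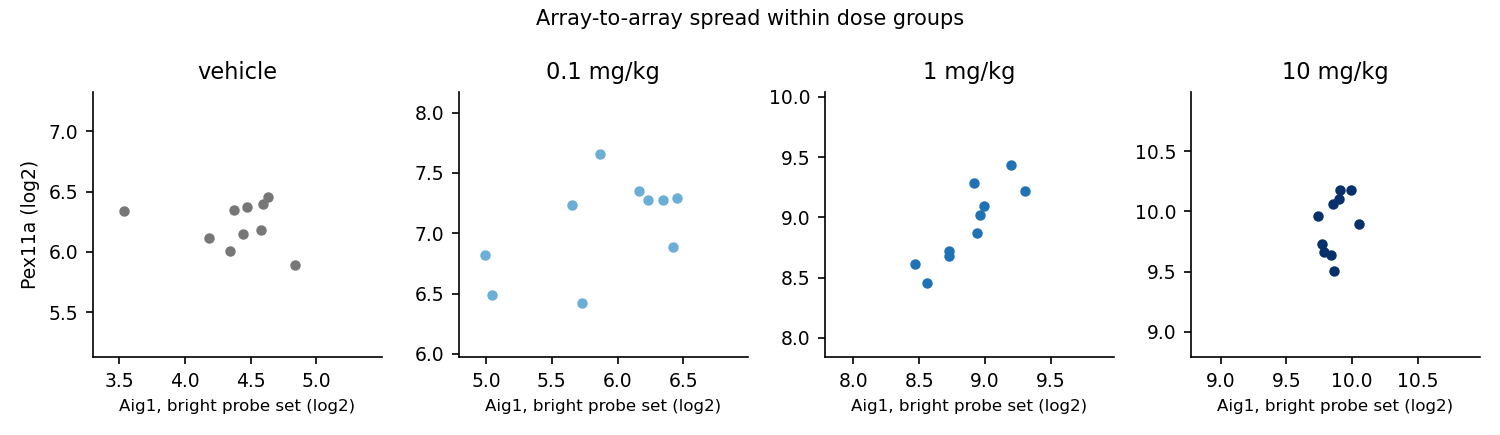
Aig1 (bright probe set, horizontal) against Pex11a (vertical) on the 10 arrays of each dose group, in deposited log2 levels with axes of equal width. From vehicle to 10 mg/kg r was -0.22, 0.54, 0.88 and 0.40, and without the 2 arrays farthest from the Aig1 median 0.64, 0.17, 0.92 and 0.37.

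By Pearson's r over all 40 arrays, the 6 genes most like the bright probe set were Ech1 (0.99), Acot2 (0.99), Eci1, another isomerase of unsaturated fatty acid oxidation (0.99), Cyp4a1 (0.98), Ehhadh (0.98) and Crat, carnitine acetyltransferase (0.98). After quantile normalization the same 6 led, with r between 0.98 and 0.99. In all, 159 of 13437 other genes had r above 0.9. These values are a description over arrays of 4 dose groups, and carry no test. The folds of these 6 genes were smaller than those of Aig1 at each dose: 1.42 to 1.86 at 0.1 mg/kg, 5.34 to 11.7 at 1 mg/kg and 6.34 to 23.3 at 10 mg/kg. Nothing is read from this, since Aig1 was chosen for its rise. With vehicle Ech1, Eci1, Cyp4a1 and Ehhadh stood at 9.08, 9.998, 9.50 and 9.43, against 4.40 for Aig1. At 10 mg/kg they stood at 12.08, 12.66, 12.76 and 12.56, against 9.87. Acot2 and Crat stood at 7.04 and 4.78 with vehicle. Whether the upper end of the scale limits these folds was not tested.

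For the dim probe set no gene came near such values. The closest were Bex3 (r = 0.71), Adamts4, Cnfn, Rapsn, Bin2 and Chrnb1 (0.66 to 0.69), and after quantile normalization the r of these 6 lay between 0.29 and 0.44. They then ranked between 20 and 307 among all genes, so none stayed among the closest 6.

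Of the 5 other measured genes of FAHFA handling, Adtrp, Pnpla2 and Cel rose at 1 and 10 mg/kg, Lipe rose by one of its 2 probe sets, and none passed at 0.1 mg/kg. In this and the following lists, rose and fell mean a limma adjusted p under 0.05 in one direction both for the deposited values and for quantile normalized ones. Of 7 listed genes besides Aig1, 5 were measured, and the fatty acid receptors Ffar1 and Ffar4 were not analysed here. None was called at 0.1 mg/kg, where limma called 0.0819% of all genes higher and 0.00744% lower. None of the 5 had an unadjusted p under 0.05 there, as 587 of 13438 genes did. Of the 5, 4 rose and 0 fell at 1 mg/kg (all genes 11.1% and 3.37%), with a median log2 change of 0.66, against 0.16 for all genes. The same 4 rose and 0 fell at 10 mg/kg (all genes 20.4% and 7.69%), with a median of 1.00, against 0.26 for all genes. On the deposited values alone limma called 0.0967%, 41.6% and 64.2% of all genes from the low to the high dose, and 0.0819%, 38.2% and 56.5% were called higher. The probe set of each gene was the one with the highest mean over all arrays, dosed ones included. With the one brightest on the vehicle arrays, an alternative chosen after seeing the data, 3 of the 5 rose at 1 and at 10 mg/kg, with medians of 0.37 and 0.52, since Lipe was then not called.

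Adtrp, the other member of the Aig1 family, had means of 10.46 ± 0.11, 10.48 ± 0.15, 11.11 ± 0.13 and 11.45 ± 0.15 from vehicle up to the highest dose (log2, SD, n = 10 each). It rose 1.58-fold at 1 mg/kg (limma adjusted p = 1.29e-10) and 1.999-fold at 10 mg/kg (limma adjusted p = 1.51e-16), but its change of 0.03 (SE 0.06) at 0.1 mg/kg did not pass (limma adjusted p = 1). Its lowest arrays at 1 mg/kg (10.91) and 10 mg/kg (11.29) lay above its highest vehicle array (10.71), as was so for 4.69% and 13.0% of all genes. The bright Aig1 probe set had changed by 1.49 at 0.1 mg/kg. No test of the difference between the 2 genes was made, since Aig1 was chosen for its rise at this dose.

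Pnpla2, the adipose triglyceride lipase, which in mouse tissue also forms FAHFAs, rose 1.61-fold at 1 mg/kg and 2.85-fold at 10 mg/kg (limma adjusted p = 6.85e-08 and 1.05e-17). Its levels were 6.45 ± 0.25 and 7.27 ± 0.24, against 5.76 ± 0.14 with vehicle. Lipe, hormone-sensitive lipase, rose 1.74-fold and 2.09-fold at the same doses (limma adjusted p = 1.71e-05 and 2.71e-08), to 4.48 ± 0.27 and 4.75 ± 0.32, against 3.68 ± 0.23 with vehicle, by the probe set that is brighter over all arrays. The other Lipe probe set was brighter with vehicle, at 3.796, and its changes of 0.04 and 0.22 did not pass (limma adjusted p = 0.805 and 0.0864). Cel, the bile-salt-dependent lipase that cleaves FAHFAs, passed at both doses, but at 2.16 and 2.32, against 1.80 with vehicle, it lay below the array medians in all groups. Prdx6, a peroxiredoxin with acyltransferase activity, had deposited log2 changes of 0.02 and 0.09 (limma adjusted p = 0.88 and 0.303) and quantile normalized ones of -0.15 and -0.18 (limma adjusted p = 0.101 and 0.0277).

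**Figure D5:**
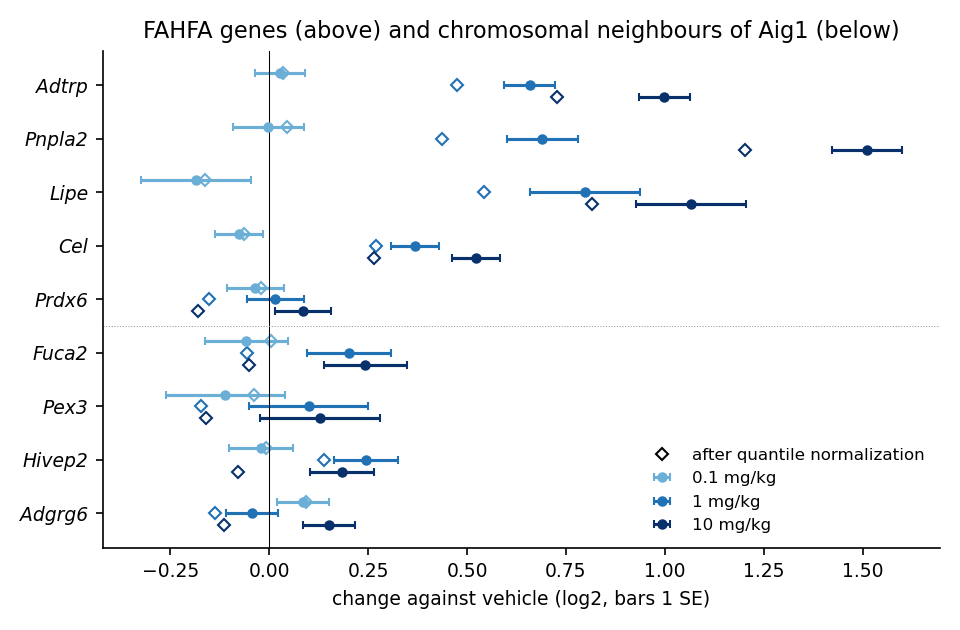
Log2 change against vehicle at the 3 doses for the 5 measured FAHFA genes (above the dotted line) and the 4 measured chromosomal neighbours of Aig1 (below it); filled circles are the deposited scale with 1 SE from limma and open diamonds the values after quantile normalization. Adtrp, Pnpla2, Cel and the Lipe probe set with the higher mean over all arrays lie right of 0 on both scales at 1 and 10 mg/kg, whereas the diamonds of the neighbours lie at -0.17 to 0.14.

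Of the 4 measured genes beside Aig1 on chromosome 1, none rose or fell at any dose. From the low to the high dose 0.0819%, 11.1% and 20.4% of all genes rose and 0.00744%, 3.37% and 7.69% fell. Little can be read from 0 of 4 beside these shares. Among 3 protein-coding neighbours on each side, 4 were measured: Pex3, which anchors peroxisomal membrane protein import, the fucosidase gene Fuca2, the zinc finger gene Hivep2 and the adhesion receptor gene Adgrg6. Their deposited log2 changes at 10 mg/kg were 0.13, 0.24, 0.18 and 0.15, below the median of 0.26 for all genes, and after quantile normalization they were -0.16, -0.05, -0.08 and -0.11. On the deposited scale 0, 1 and 3 of the 4 had an unadjusted p under 0.05 at the 3 doses in limma, and after quantile normalization 0, 1 and 0. Of all 13438 genes 587, 6691 and 9000 had one on the deposited scale, and 548, 4716 and 6893 after quantile normalization. Hivep2 and Adgrg6 were dim, at 2.06 and 2.01 with vehicle.

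Wider lists set the frame. Of 35 measured PPAR-alpha target genes 8, 34 and 35 rose from the low to the high dose, and 0 fell at any dose (0.0819%, 11.1% and 20.4% of all genes rose). The list's median log2 changes were 0.12, 1.39 and 1.96. The bright Aig1 probe set, chosen for its rise, exceeded the median at each dose, and nothing is read from this. Of 17 other lipid ester hydrolases 0 passed at 0.1 mg/kg (0 also at an unadjusted p under 0.05 in limma), 5 rose and 0 fell at 1 mg/kg (all genes 11.1% and 3.37%), and 8 rose and 1 fell at 10 mg/kg (all genes 20.4% and 7.69%). The largest changes of this list at 10 mg/kg were those of Lpl, lipoprotein lipase (14.5-fold), Pnpla3, a lipase of lipid droplets (7.98-fold), Mgll, monoglyceride lipase (5.26-fold), and Abhd16a, which cleaves phosphatidylserine (3.77-fold). None of these 4 passed at 0.1 mg/kg, with changes between -0.59 and 0.20 on the log2 scale.

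Androgen-responsive genes, listed because of the gene's name, were mixed. Of 8 measured, 0 passed at 0.1 mg/kg (0 also at an unadjusted p under 0.05 in limma). At 1 mg/kg 1 of the 8 rose and 0 fell, near the 11.1% and 3.37% of all genes. At 10 mg/kg 4 rose and 2 fell (all genes 20.4% and 7.69%), with a median change of 0.19, under the 0.26 of all genes. The 4 were Adtrp, Tfpi, the inhibitor that Adtrp is named for (1.57-fold), Fkbp5, a co-chaperone of steroid receptors (1.45-fold), and Cyp3a2. Cyp2c11, a male-specific P450 of rat liver, fell by 0.71 on the log2 scale at 10 mg/kg (11.35 ± 0.47, against 12.06 ± 0.18 with vehicle, SD, n = 10 each, limma adjusted p = 3.65e-06), and Pmepa1 fell by 0.28 (limma adjusted p = 0.0183).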

How the data were processed

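The authors deposited a log2 level for every probe set on 40 arrays. The submitters' processing notes name GCRMA and Partek, with no version. GCRMA subtracts a background predicted from probe sequence, which leaves dim probe sets near a floor. The values were used as deposited. Arrays have no read depth, and their number limits the precision.

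Probe sets were named by the platform annotation, with symbols updated through Entrez numbers in a RefSeq table of GRCr8 (18983 of 19063 probe sets with 1 symbol matched); 572 with several genes and 11498 unnamed ones named no gene. Both Aig1 probe sets were used. For other genes the probe set with the highest mean was taken, which left 13438 genes. Groups and doses came from the sample labels, which number the samples within each dose.

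One model with 4 groups was fitted with limma 3.58.1 in R 4.3.3 (36 residual degrees of freedom), two-sided, with Benjamini-Hochberg adjustment over all genes at 0.05. It was tested on simulated data. Permutation tests used 100000 resamples in Python 3.11.15. Figures were drawn with matplotlib 3.10.9. Aig1, the gene lists, the partner genes and the tests were chosen with earlier results of these data known. By a set rule the text names the 6 genes most like each Aig1 probe set, the measured FAHFA genes, 3 neighbours on each side, the partners and up to 4 genes of other lists with the largest changes at 10 mg/kg. Hdc, Adig, Spmip11, Aldh1a1, Scd2, Enc1, Cyp3a2 and Pmepa1 were chosen after their values were seen. Replicate numbers were checked for pairing. Alternatives were other scalings of the arrays, a filter on dim genes, all probe sets, a fit of only the groups compared, a replicate block and leaving out arrays. Those without arrays 8 and 9 at 0.1 mg/kg or with arrays 1 to 4 alone at 1 mg/kg, and the probe set brightest with vehicle, were chosen after seeing the data.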

Additional observations from a re-analysis of the deposited data

Results flagged for a closer look

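One Aig1 value stood apart from its group. On array 6 of the vehicle group the bright Aig1 probe set read 3.54, against 4.18 on the next lowest vehicle array, a gap of 0.499 of the group's range. Of 8 groups examined (2 probe sets, 4 dose groups) this was the only one, and chance marks about 1 group in 20. The other Aig1 probe set read 1.83 on that array, its lowest vehicle value. Without array 6 the vehicle mean was 4.49 ± 0.19 (SD, n = 9), and the change at 0.1 mg/kg was 1.40 in place of 1.49.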

How the results depend on the processing

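For the bright Aig1 probe set, leaving out each array in turn gave log2 changes of 1.40 to 1.59, 4.39 to 4.53 and 5.38 to 5.52 at 0.1, 1 and 10 mg/kg. Under the alternatives run, its change at 10 mg/kg was lowest after quantile normalization, at 5.20, against 5.47 (SE 0.12) as deposited. It was 5.23 with arrays shifted to 1 gene median and 5.24 when shifted to the hybridisation controls. At 1 mg/kg its change was lowest at 1 gene median, at 4.21, against 4.48 (SE 0.14) as deposited. For the dim one the same ranges were -0.09 to -0.03, 0.07 to 0.12 and 0.17 to 0.22, and its change at 1 mg/kg became -0.18 when arrays were shifted to 1 gene median and -0.079 when shifted to the hybridisation controls, and that at 10 mg/kg became -0.070 after quantile normalization, -0.047 at 1 median and -0.040 with these controls. The cause was not tested.

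Limma called 13, 5592 and 8626 genes from the low to the high dose. Scaling to hybridisation controls gave 7, 1737 and 4022, and fitting only the pair of groups gave 7 at 0.1 mg/kg. Quantile normalization gave 3106 at 1 mg/kg, 1 gene median 5510 at 10 mg/kg. With fewer genes tested (a group mean at log2 5 or more) there were 3175 and 3881, with all probe sets 11109 and 20490 at 1 and 10 mg/kg. Keeping arrays 1 to 4 of the 1 mg/kg group, chosen after seeing the data, gave 3620. The share called higher was 91.9% at 1 mg/kg and 88.0% at 10 mg/kg, against 47.8% and 45.6% after quantile normalization, 23.9% and 52.7% at 1 median and 61.0% and 55.4% with the controls.

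On the deposited scale alone 3 androgen-responsive genes were higher at 1 mg/kg, against 1 after quantile normalization and 1 with arrays 1 to 4 only. Of the neighbours 1 was higher at 1 mg/kg, against 0 after quantile normalization and 0 with arrays 1 to 4, and 3 at 10 mg/kg, against 0 after quantile normalization. The androgen list has 8 measured genes and the neighbours 4. On the deposited scale 38.2% of all genes were called higher at 1 mg/kg and 56.5% at 10 mg/kg, so nothing is read from these counts. Taking the probe set brightest with vehicle changed Lipe alone among the FAHFA, hydrolase, PPAR-alpha, androgen and neighbour genes. With the replicate block 14, 5653 and 8658 genes were called. Deviations from the group means had a median r of 0.04 between same-numbered samples of different doses, against -0.006 between differently numbered ones. Of the 60 same-numbered pairs 17 had r above 0.1. This was not counted for differently numbered pairs, so no pairing is read from it.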
